A study of Mus musculus with 5 samples.

Results

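Large clusters of olfactory receptor genes on 3 mouse chromosomes were examined in Hi-C data from hippocampal neurons. They were taken as the bins at 85.0 to 90.0 Mb of chromosome 2, 37.6 to 40.0 Mb of chromosome 9 and 109.6 to 115.8 Mb of chromosome 7 of the mm9 build that have a value in every library, with 2 Mb on either side of each as flanks. They held 100, 48 and 117 bins of 50 kb, or 265 of the 50336 bins fitted on chromosomes 1 to 19 and X, and the flanks held 240. On chromosome 7, 7 of 124 possible bins lacked a value in at least 1 library, all between 113.0 and 113.35 Mb, and 5 of them were listed in no library.

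Hi-C joins pieces of DNA that lay close together in a fixed nucleus and reads which pieces were joined. Nuclei came from the hippocampus of mice of the cross ArcCreERT2 x R26R-STOP-floxed eYFP (genotype label +/+), in which the promoter of Arc, a gene switched on by neuronal activity, drives a Cre recombinase that needs tamoxifen, so that the yellow fluorescent reporter marks neurons active around the dose. All libraries share that cross, the dose of 4-hydroxytamoxifen, the housing in the dark, the fear conditioning and the sort after staining for NeuN and GFP, and they carry the same treatment label (foot shock and collection on day 0, no recall), so the states are known only by the titles: Basal with 2 libraries, Early with 1 and Late with 2. The protocol lists collections 1.5 to 2 h and 5 days after conditioning without tying either to a title, and gives 100000 nuclei per group, pooled from 2 animals. The sources used here give neither the age of the mice nor the GFP gate of each group, and the files hold no expression values with which the sorted neurons could be checked against markers.

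Olfactory receptors are the odour-sensing G protein-coupled receptors of the nose and form the largest gene family of the mouse, laid out in long arrays on many chromosomes. Each olfactory sensory neuron expresses a single receptor allele, while the other receptor genes stay in compact heterochromatin, and in most other cell types the whole family is silent. Hi-C splits chromosomes into compartment A, open and rich in active genes, and compartment B, closed and inactive. The first principal component (PC1) of a chromosome's contact matrix is a signed score that tells the compartments apart. By HOMER's convention a positive PC1 stands for A, but the sign of a principal component is arbitrary until it is set on each chromosome. Compartment B stands here, on chromosomes 2 and 9, for the deposited negative sign under that convention. PC1 is an average over the pooled nuclei, so a shift in all of them and a larger shift in some cannot be told apart.

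That sign decides how the chromosome 7 cluster is read. As deposited, the mean PC1 of this cluster was 1.46 and 1.47 (Basal), 1.64 (Early), -1.38 (Late replicate 1) and 1.57 (Late replicate 2). Its flanks had the opposite sign in every library, at -0.67 in both Basal libraries, -0.526 (Early), 0.952 (Late replicate 1) and -0.93 (Late replicate 2). Chromosome 7 of Late replicate 1 was therefore multiplied by -1, which gives all 5 libraries 1 orientation. In that orientation the chromosome 7 cluster is positive, while the clusters of chromosomes 2 and 9 were negative in every library. The sources used here do not say how the authors set the sign, so the names A and B are not used for chromosome 7 below, and its changes are described as toward or away from its flanks. Inverting chromosome 7 in all 5 libraries instead gives the same sizes with the opposite sign.

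The receptor genes in these arrays share a sequence feature that had no part in choosing the bins. In RefSeq's gene order (GRCm38.p6, a later build than the bins, so that no gene was placed in a bin), the largest group of receptor genes on chromosome 2 holds 222 coding receptors and 71 pseudogenes and lies between Lrrc55 and Ptprj. On chromosome 9 the group holds 95 coding receptors and 31 pseudogenes between Panx3 and Zfp202, and on chromosome 7 it holds 193 and 45 between Rrm1 and Nlrp10. RefSeq promoter sequences, 300 bases from 250 before to 50 after the gene's start, were matched for 435 of these 510 coding receptors. The dinucleotide CG, read on 1 strand since it is its own reverse complement, occurred a median of 1 time per receptor promoter. It was absent from 154 of them (35.4%), against 864 of 17274 promoters of all coding genes (5%). None of the 435 held 10 or more CGs, whereas 57.8% of all promoters did, as did 20 of 30 matched promoters of the 8 genes on each side of the groups. Of 47 matched promoters of the other coding genes inside the groups, 12 did (25.5%). Their median was 3 CGs, against 14 in all promoters. The median G and C content was 34% in receptor promoters and 56.3% in all. For 313 of the 435 the gene model begins at an ATG, so many of these windows lie before the coding start rather than a mapped transcription start. Among the genes at the borders of the groups with a matched promoter, Lrrc55 had 4 CGs, Ptprj 6, Rrm1 9 and Zfp202 17. Below, the first receptor of each group with the median number of CGs is shown. Beside them stands Zfp202, a zinc finger gene bordering the chromosome 9 group and the richest of these border genes, with every CG in capitals.
Olfr988 (chromosome 2, minus strand): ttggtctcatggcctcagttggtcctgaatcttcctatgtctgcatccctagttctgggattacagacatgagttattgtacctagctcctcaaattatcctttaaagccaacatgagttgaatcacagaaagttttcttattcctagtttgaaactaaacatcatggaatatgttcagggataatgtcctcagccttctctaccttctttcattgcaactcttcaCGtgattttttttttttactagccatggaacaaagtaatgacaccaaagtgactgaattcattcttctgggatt
Olfr881 (chromosome 9, plus strand): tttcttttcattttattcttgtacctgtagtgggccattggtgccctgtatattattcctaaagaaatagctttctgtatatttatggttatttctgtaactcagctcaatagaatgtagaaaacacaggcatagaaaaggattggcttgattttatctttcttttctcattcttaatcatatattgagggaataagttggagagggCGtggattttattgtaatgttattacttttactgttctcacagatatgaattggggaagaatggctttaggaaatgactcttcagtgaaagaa
Olfr543 (chromosome 7, minus strand): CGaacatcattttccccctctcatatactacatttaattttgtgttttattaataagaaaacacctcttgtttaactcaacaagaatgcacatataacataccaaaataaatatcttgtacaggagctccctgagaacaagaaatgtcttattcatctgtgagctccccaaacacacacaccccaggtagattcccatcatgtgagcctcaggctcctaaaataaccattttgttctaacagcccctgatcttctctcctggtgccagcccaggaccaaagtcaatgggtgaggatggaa
Zfp202 (chromosome 9, plus strand): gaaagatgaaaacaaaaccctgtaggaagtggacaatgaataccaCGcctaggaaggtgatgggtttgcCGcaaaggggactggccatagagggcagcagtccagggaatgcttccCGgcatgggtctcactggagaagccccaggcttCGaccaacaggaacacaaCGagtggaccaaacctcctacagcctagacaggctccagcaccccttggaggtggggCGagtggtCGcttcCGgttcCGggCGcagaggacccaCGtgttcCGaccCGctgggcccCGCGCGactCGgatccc

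Inside the groups the gene order differs between chromosomes. On chromosomes 2 and 9 only 3 coding genes each that are not receptors interrupt the arrays: Fads2b, Pramel7 and Pramel6 on chromosome 2, and Vwa5a, AW551984 and Tmem225 on chromosome 9. On chromosome 7 there are 55. The longest such block, of 21 genes, follows the first 126 receptors and holds Cckbr, the receptor of cholecystokinin and gastrin in brain, Ilk, a kinase of integrin signalling, Apbb1, an adaptor that binds the amyloid precursor protein, and Tpp1, a lysosomal peptidase. A block of 11 genes, all but 1 of them named Trim, follows the first 91 receptors, and the 5 beta-globin genes of red blood cells (Hbb) follow the first 73. A block of 6 genes after 151 receptors holds Syt9, a synaptotagmin.

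The chromosome 2 cluster lay deep in compartment B in every library. Its mean PC1 was -1.43 in Basal replicates 1 and 2 alike, -1.60 in the Early library, and -1.42 and -1.53 for the pair of Late libraries. All 100 bins were negative in all 5 libraries. Of the 3527 bins of chromosome 2, only between 2.04% (Late replicate 1) and 4.28% (Early) lay below the cluster's own median. The negative run that holds the cluster measured 5.35 to 5.55 Mb and was among the 5 longest negative runs of the chromosome in each library. The level was even along the array, with an SD over bins of 0.131 to 0.275, where the SD over the chromosome is set near 1. The highest bin by Basal mean was the first, at 85.00 to 85.05 Mb, with -0.695 and -0.578 (Basal), -0.685 (Early), and -0.862 and -0.683 (Late). The lowest by Basal mean, at 86.85 to 86.90 Mb, read -1.56 and -1.55 (Basal), -2.01 (Early), and -1.49 and -1.69 (Late).

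The chromosome 9 cluster was likewise in compartment B. Its mean PC1 was -1.65 and -1.67 (Basal), -2.04 (Early), and -1.67 and -1.82 (Late), and all 48 bins were negative in all 5 libraries. Between 1.24% (Early) and 2.85% (Basal replicate 1) of the 2422 bins of the chromosome lay below the cluster's median. Scores are scaled per chromosome, so the levels of chromosomes 2 and 9 are not ranked against each other. The lowest bin by Basal mean, at 39.85 to 39.90 Mb, read -1.90 and -1.85 (Basal), -2.42 (Early), and -1.75 and -2.06 (Late). The highest by Basal mean, at 37.65 to 37.70 Mb, read -1.11 and -1.09 (Basal), -1.27 (Early), and -1.25 and -1.30 (Late).

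The chromosome 7 cluster formed a plateau on the other side of 0 from its flanks and was less even than the other arrays. In the common orientation its mean PC1 was 1.46 and 1.47 (Basal), 1.64 (Early), and 1.38 and 1.57 (Late), with an SD over bins of 0.404 to 0.577. Of its 117 bins, 117 and 116 (Basal), 117 (Early), and 109 and 113 (Late) were positive. Of the 2684 bins of the chromosome, the share above the cluster's median was 11% and 11.2% (Basal), 7.75% (Early), and 4.62% and 3.87% (Late). The highest bin by Basal mean was the last, at 115.75 to 115.80 Mb (1.78 and 1.82 in Basal, 2.06 in Early, 1.72 and 1.99 in Late), and the positive run went on for 300 to 400 kb past this edge in each library.

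**Figure D1:**
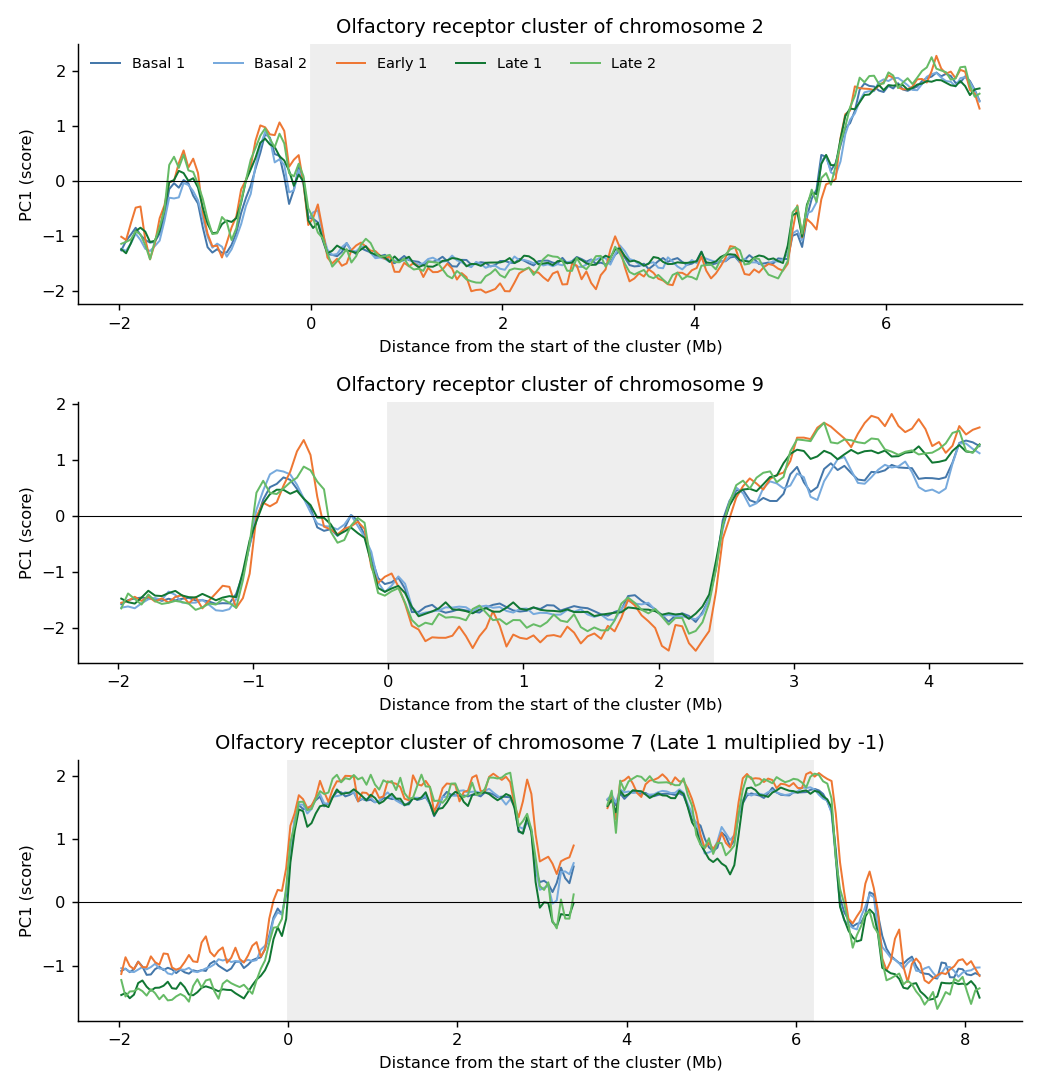
PC1 (score, y axis) of each 50 kb bin in the 5 libraries (lines) across the 3 clusters (grey) and their 2 Mb flanks, by distance from the start of the cluster in Mb (x axis). The chromosome 2 and 9 clusters form flat negative floors, and the chromosome 7 cluster a positive plateau with stretches nearer to 0 and a gap of 7 bins without values.

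The mean of each cluster stood apart from the mean of its flanks in all 5 libraries. On chromosome 2 the cluster mean minus the mean of both flanks was -1.77 and -1.74 (Basal), -2.08 (Early), and -1.84 and -2.04 (Late) (mean -1.90 ± 0.155, SD, n = 5, exact sign-flip permutation p = 0.0625, 2-sided). On chromosome 9 it was -1.60 and -1.61 (Basal), -2.27 (Early), and -1.75 and -1.98 (Late) (-1.84 ± 0.285, SD, n = 5, exact permutation p = 0.0625). On chromosome 7 it was 2.13 and 2.14 (Basal), 2.17 (Early), and 2.34 and 2.49 (Late) (2.26 ± 0.157, SD, n = 5). No test is given for chromosome 7, since the inversion of Late replicate 1 fixed the sign of its difference, which was the opposite of the other 4 libraries as deposited. The difference on chromosomes 2 and 9 was negative in 5 of 5 libraries, and 0.0625 is the smallest p that 5 libraries can give. The 2 sides were unlike. The right flank of chromosome 2 averaged 1.14 to 1.27 over the 5 libraries, while the left flank averaged -0.518 to -0.206. On chromosome 9 the right flank averaged 0.62 to 1.16 and the left flank -0.749 to -0.701, so the left neighbourhood was itself mostly negative. The lowest bin of that left flank read -1.58 and -1.70 in the Basal libraries, near the cluster means there of -1.65 and -1.67. It read -1.66 in Early, and -1.57 and -1.68 in Late.

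**Figure D2:**
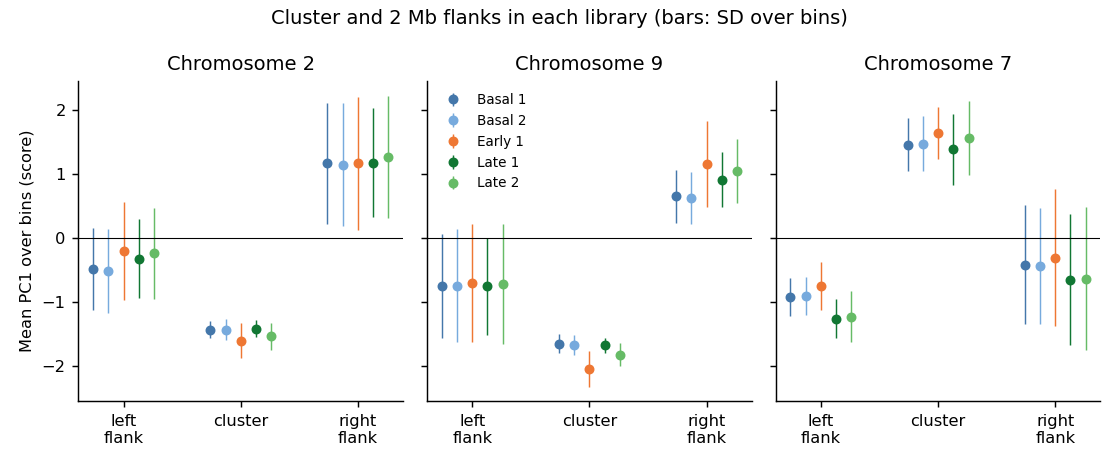
Mean PC1 (score, y axis) of the left flank, the cluster and the right flank (x axis) in each of the 5 libraries (points), with the SD over bins as bars. The clusters of chromosomes 2 and 9 sit between -1.42 and -2.04 and that of chromosome 7 between 1.38 and 1.64, each beyond both of its flanks.

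Most borders of the clusters lay within 150 kb of each other in all 5 libraries. On chromosome 2 the sign changed 50 to 100 kb outside the left edge in all 5 libraries, and 300 kb outside the right edge in 4 of them and 450 kb in Early. On chromosome 9 the right border lay 100 kb outside the edge in 4 libraries and 150 kb in Early. Its left border was 250 kb outside for Basal replicates 1 and 2, 500 kb for Early, and 550 and 450 kb for Late. This was the only border that lay farther out in all 3 Early and Late libraries than in both Basal libraries by 200 kb or more. On chromosome 7 the left border lay 0 to 50 kb outside the edge in Basal and Late and 200 kb outside in Early, and the right border 300 to 400 kb outside in all 5.

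The comparison of Late with Basal asks whether these arrays sit in another chromatin environment in the Late state. Few cluster bins differed. In limma, 6 of 265 cluster bins (2.26%) passed an adjusted p of 0.05, where 17.0% of all bins fitted passed. All 6 were on chromosome 7 and moved toward its flanks. In the common orientation that is 6 lower and 0 higher, where 7.84% of all bins were called lower and 9.13% higher. With chromosome 7 of all libraries inverted it is 0 lower and 6 higher, where 8.04% and 8.93% of all bins were. The count was 1 without either one of the Basal libraries, 14 without Late replicate 1 (30.5% of all bins) and 16 with chromosome medians set to 0 (21.2% of all bins). The flanks had 33 of 240 (13.8%). On chromosomes 2 and 9 limma called 0 of 148 cluster bins, and no cluster bin there had an unadjusted p under 0.05. The cluster mean went from -1.43 ± 0.000501 to -1.47 ± 0.0807 on chromosome 2 (SD, n = 2 each, exact permutation p = 1). On chromosome 9 it went from -1.66 ± 0.0184 to -1.75 ± 0.104 (SD, n = 2 each, exact permutation p = 0.333), and on chromosome 7 from 1.467 ± 0.0094 to 1.475 ± 0.128 (SD, n = 2 each, exact permutation p = 1). The smallest p that 2 libraries against 2 allow is 0.333. On chromosomes 2 and 7 the Basal means lay between those of the Late replicates, so the groups overlapped. Outside the clusters 836 of 10453 bins with an absolute Basal mean of at least 1.3 passed (8%), against 0 of 227 such bins inside the clusters. This cutoff was chosen after the values were seen, neighbouring bins are not independent, and the shares were not tested against each other.

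**Figure D3:**
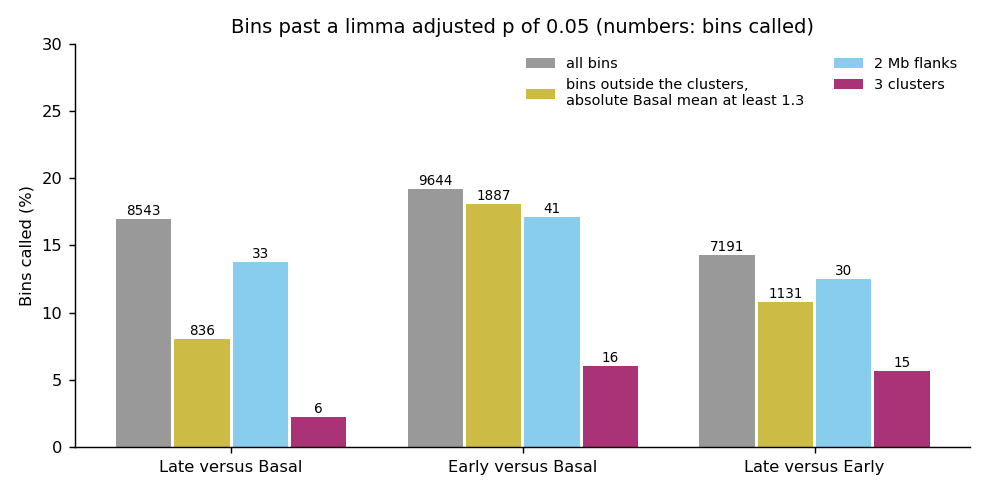
Share of bins (%, y axis) past a limma adjusted p of 0.05 in each comparison (x axis), with the number of called bins above each bar. The clusters have the lowest share in all 3 comparisons, at 2.26%, 6.04% and 5.66%, against 17.0%, 19.2% and 14.3% of all bins.

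Several flanks held more called bins than the clusters beside them. Of all bins, 17.0% passed, with 9.13% higher and 7.84% lower in Late. Other flanks held few: the left flank of chromosome 9 had 0 of 40 bins called and the right flank of chromosome 2 had 1. In RefSeq order the first genes past the chromosome 9 receptors are Zfp202, Scn3b (a sodium channel subunit) and Gramd1b, followed by Clmp and Hspa8 (a constitutive heat shock protein). The right flank of chromosome 9 averaged 0.651 and 0.62 in Basal, 0.911 and 1.04 in Late and 1.16 in Early. Here limma called 16 of 40 bins (40%) higher in Late, and the groups did not overlap (means 0.635 ± 0.022 and 0.975 ± 0.0917, SD, n = 2 each, exact permutation p = 0.333). The longest called stretch of these, at 40.55 to 40.85 Mb, read 0.667 and 0.539 (Basal), 1.40 (Early), and 1.12 and 1.40 (Late) (difference 0.657, median SE 0.13, highest limma adjusted p 0.0386 in its 6 bins). Others lay at 41.50 to 41.75 Mb (difference 0.542) and 41.00 to 41.25 Mb (0.535). In the left flank of chromosome 2 limma called 5 of 40 bins (12.5%), all higher in Late. Those at 84.05 to 84.15 Mb went from -1.31 and -1.29 in Basal to -0.759 and -0.708 in Late. The left flank of chromosome 7 averaged -0.92 and -0.90 in Basal and, farther from its cluster, -1.26 and -1.23 in Late. There limma called 8 of 40 bins (20%) lower, where 21% of all chromosome 7 bins were called, higher or lower. The cluster-to-flank distance was wider in both Late libraries than in either Basal library on all 3 chromosomes. On chromosomes 2, 9 and 7 it was wider by 0.186, 0.265 and 0.279 (exact permutation p = 0.333 each, n = 2 each). This was not particular to Late, since the Early library, at -2.08, -2.27 and 2.17, was also wider than both Basal libraries. Each library is scaled per chromosome, so these distances do not compare compartment strength between libraries.

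Of the 6 called cluster bins, 5 lie in a stretch of chromosome 7 that is unlike the rest of the array. From 112.50 to 113.00 Mb, PC1 dropped from the plateau toward the level of the flanks and averaged 0.374 and 0.33 (Basal), 0.715 (Early), and -0.106 and 0.0441 (Late) over 10 bins. Late was lower than Basal in both libraries (means -0.0308 ± 0.106 and 0.352 ± 0.0311, SD, n = 2 each, exact permutation p = 0.333). Here limma called the 5 bins from 112.75 to 113.00 Mb, which read 0.423 and 0.414 (Basal), 0.68 (Early), and -0.196 and -0.15 (Late) (difference -0.591, median SE 0.117, highest limma adjusted p 0.023). These bins were called on this same difference, so leaving out a library is no independent check of it. The difference was -0.587 without Basal replicate 1 and -0.595 without Basal replicate 2. In these fits limma called 1 of the 6 cluster bins, and the share of all bins that passed was 5.71% and 6.05% in place of 17.0%. The stretch ends at the 7 bins without values, whose part in this result was not tested. By sign, 3 cluster bins (1.13%) were positive in both Basal and negative in both Late libraries, against 5.82% of all bins fitted, and all 3 lay in this stretch. Without Late replicate 2 there were 7, but fewer libraries must then agree, and no share of all bins is given for that count. The lowest bin of the cluster by Basal mean, at 112.70 to 112.75 Mb, read 0.164 and -0.0187 (Basal), 0.613 (Early), and -0.309 and -0.293 (Late).

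A further stretch nearer to 0 lay at 114.50 to 114.70 Mb, with 0.89 and 0.839 (Basal), 0.897 (Early), and 0.706 and 0.896 (Late). The Late values spanned those of Basal. The sixth called bin, at 114.75 to 114.80 Mb, fell from 1.05 and 1.09 to 0.571 and 0.745 (difference -0.411, limma adjusted p 0.0493). A last stretch of 1 bin, at 114.80 to 114.85 Mb, read 0.883 and 0.987 (Basal), 0.868 (Early), and 0.443 and 0.814 (Late), with both Late libraries below both Basal libraries. The 3 stretches, of 10, 4 and 1 bins, were picked after the profile was seen, as bins with an absolute Basal mean under 1, so the sixth called bin is not in them. The bins were not matched to the gene blocks above. Without these 15 bins, the other 102 bins of the cluster averaged 1.60 and 1.62 (Basal), 1.77 (Early), and 1.57 and 1.75 (Late).

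**Figure D4:**
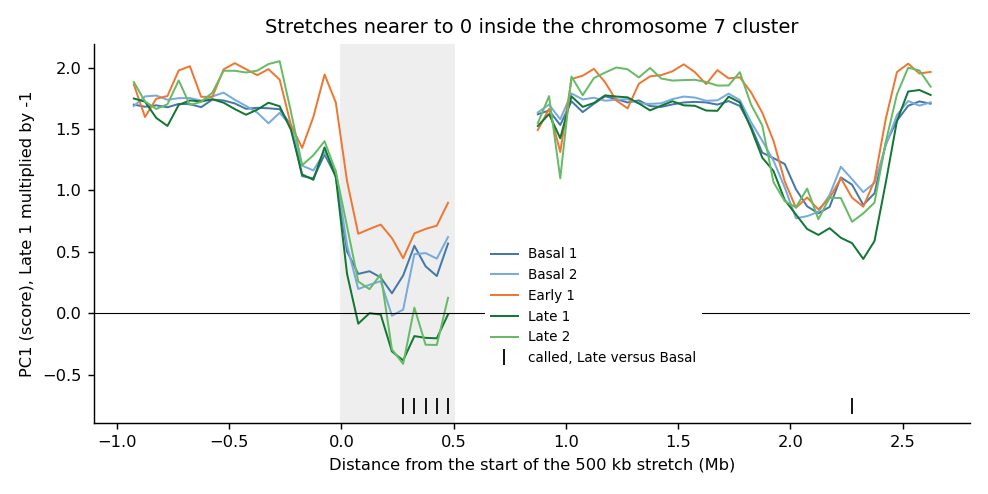
PC1 (score, y axis, Late replicate 1 multiplied by -1) around the 500 kb stretch (grey) of the chromosome 7 cluster in the 5 libraries (lines), by distance from its start in Mb (x axis). Ticks mark the 6 bins called in Late versus Basal, where both Late libraries lie below both Basal libraries.

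The comparison of Early with Basal rests on a single Early library, which is assumed to vary like the others. In limma 16 of 265 cluster bins (6.04%) passed, against 19.2% of all bins fitted. Of these, 11 were on chromosome 9 (of 48 bins, 22.9%) and 2 on chromosome 2 (of 100, 2%), all lower in Early. Of all bins, 9.68% were called lower. The other 3 were on chromosome 7 (of 117, 2.56%) and higher, against 9.48% of all bins called higher. The low pooled share thus did not hold for the chromosome 9 cluster. On chromosome 9 as a whole, 20.1% of bins were called, higher or lower. With chromosome 7 inverted in all libraries, all 16 were lower, where 9.50% of all bins were. Limma called 0 cluster bins with Basal replicate 1 left out (23 at an unadjusted p under 0.05) and 0 with Basal replicate 2 left out (22), when 8.45% and 8.97% of all bins passed. With either Late replicate left out it called 63, when 36.7% of all bins passed. The mean of each of the 3 clusters was farther from 0 in Early than in either Basal library. On chromosome 9 the mean was -2.04 in Early and -1.66 ± 0.0184 in Basal (SD, n = 2), and 46 of 48 bins lay below both Basal libraries, as did 43.7% of all bins fitted. On chromosome 2 it was -1.60 against -1.43 ± 0.000501 (SD, n = 2), with 79 of 100 bins below both, and on chromosome 7 1.64 against 1.47 ± 0.0094 (SD, n = 2), with 98 of 117 bins above both, as were 44.6% of all bins fitted. Early lay outside the range of the Basal libraries in 88.2% of all bins. After merging neighbouring called bins, the region called lower with the largest difference was at 38.45 to 38.50 Mb of chromosome 9, at -1.63 and -1.70 (Basal), -2.34 (Early), and -1.64 and -1.94 (Late) (difference -0.672, SE 0.164, limma adjusted p 0.0256). The next 4 regions called lower also lay on chromosome 9, with -0.628 at 39.00 to 39.05 Mb, -0.572 at 39.95 to 40.00 Mb, -0.564 at 38.70 to 38.75 Mb and -0.56 at 39.60 to 39.70 Mb. On chromosome 7 the regions called higher, away from the flanks, lay at 112.40 to 112.50 Mb (0.61) and 112.70 to 112.75 Mb (0.54). No cluster bin had a sign in Early opposite to both Basal libraries, against 9.57% of all bins fitted.

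The Early differences on chromosomes 2 and 9 were smaller under another scaling. The lowest 5% of chromosome 9 bins lay below -1.63 and -1.64 in Basal and below -1.82 in Early, and those of chromosome 2 below -1.40, -1.42 and -1.60. The highest 5% of chromosome 2 bins lay above 1.67 and 1.66 in Basal and above 1.53 in Early. After quantile normalization, which gives all libraries the same set of values over the bins fitted, the chromosome 9 cluster averaged -1.71 and -1.73 (Basal), -1.79 (Early), and -1.82 and -1.80 (Late). The Early minus Basal difference was then -0.0709 in place of -0.384 on chromosome 9 and -0.0137 in place of -0.168 on chromosome 2. The number of called cluster bins fell to 3. On chromosome 7 Early remained the highest library under this scaling, at 1.61, with Basal at 1.43 and 1.45. Local noise was also highest in Early (0.2 PC1 units) and in Late replicate 2 (0.186), and lower in the Basal libraries (0.112 and 0.115) and Late replicate 1 (0.0992), and its part in these values was not tested. Local noise is the scatter of single bins about those 100 kb away on either side. It was taken on the differences between pairs of libraries and then divided among the libraries. In limma, weighting the libraries by it left 0 of the 16 cluster bins called, and 7.09% of all bins in place of 19.2%. At an unadjusted p under 0.05 the cluster counts were 35 with the weights and 61 without.

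**Figure D5:**
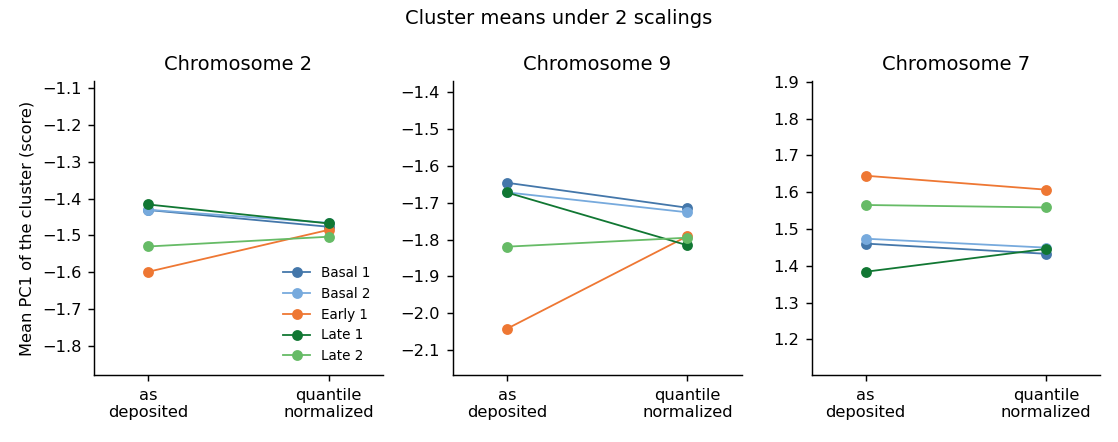
Mean PC1 of each cluster (score, y axis) in the 5 libraries (points, joined by lines) as deposited and after quantile normalization (x axis). On chromosomes 2 and 9 Early stands below the Basal libraries as deposited, at -1.60 and -2.04, and at -1.48 and -1.79 after normalization, beside Basal means of -1.47 to -1.73.

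In the flanks, limma called 41 of 240 bins (17.1%), against 19.2% of all bins. In the right flank of chromosome 9 it called 20 of 40 bins (50%) higher in Early, against 9.48% of all bins called higher. These were led by 41.05 to 41.70 Mb, at 0.756 and 0.687 (Basal), 1.59 (Early), and 1.11 and 1.21 (Late) (difference 0.865, median SE 0.149). In the left flank of chromosome 9, 36.90 to 37.05 Mb went from 0.312 and 0.31 to 1.20 in Early (difference 0.89), with 0.316 and 0.794 in Late. The left flank of chromosome 2 had 9 of 40 bins called (22.5%), all higher. Those at 84.65 to 84.85 Mb went from -0.0173 and 0.0703 to 0.649 (difference 0.623). Limma also called 3 flank bins lower. Those at 90.25 to 90.35 Mb of chromosome 2 read 0.153 and -0.0198 (Basal) and -0.616 (Early), a difference of -0.682, and that at 36.55 to 36.60 Mb of chromosome 9 differed by -0.522. Both the Early and the Late comparison use the same Basal libraries, so their shared direction in these flanks is not independent.

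Late was last set against the single Early library. In limma 15 of 265 cluster bins (5.66%) passed, against 14.3% of all bins fitted. On chromosomes 2 and 9, 6 bins were higher in Late, nearer to 0, against 7.15% of all bins that were called higher. Of these 6, 5 were on chromosome 9 (of 48 bins, 10.4%). The largest difference of a merged region was at 38.20 to 38.30 Mb of chromosome 9 (-2.26 in Early, -1.71 and -1.64 in Late, and -1.72 and -1.67 in Basal). The chromosome 9 cluster averaged -2.04 in Early and -1.75 ± 0.104 in Late (SD, n = 2), a difference of 0.297 that became -0.0146 after quantile normalization. On chromosome 7, 9 bins were lower in Late, nearer to the flanks, against 7.13% of all bins that were called lower. With chromosome 7 inverted in all libraries, all 15 were higher, where 6.93% of all bins were. Of these 9, 7 lay in the stretch at 112.60 to 113.00 Mb, at 0.671 in Early and -0.184 and -0.121 in Late (difference -0.824, median SE 0.147, highest limma adjusted p 0.0385). Among the called stretches of the 3 clusters, this had the widest gap between states. By sign, 4 cluster bins (1.51%) were positive in Early and negative in both Late libraries, all of them there, against 7.80% of all bins fitted. The count was 8 without Late replicate 2, where fewer libraries must agree, and no share of all bins is given for it. In the left flank of chromosome 7 limma called 18 of 40 bins (45%) lower in Late, the highest share in any flank of this comparison. Of all chromosome 7 bins 27.6% were called, higher or lower, and of all 240 flank bins 12.5%. Leaving out Basal replicate 1 gave 7 cluster calls in place of 15, as did leaving out Basal replicate 2, when 9.05% of all bins passed. Leaving out Late replicate 2 gave 52, when 27.8% of all bins passed.

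Within each cluster the bins of the libraries were positively correlated, on chromosome 7 after the inversion of Late replicate 1. That inversion fixed the sign of r there for every pair with this library. Across the 117 bins of chromosome 7, Pearson's r was 0.989 between the Basal libraries, 0.98 between the Late libraries and 0.928 to 0.981 between libraries of different states. On chromosome 9 (48 bins) it was 0.885 for the Basal pair, 0.698 for the Late pair and 0.638 to 0.871 between states. On chromosome 2 (100 bins) it was 0.879, 0.708 and 0.718 to 0.868. These are descriptions over neighbouring bins that share reads through the 100 kb windows.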

How the data were processed

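PC1 tables of 5 Hi-C libraries were used, grouped by their titles. The deposited values are a signed score per 50 kb bin in windows of 100 kb, made with HOMER on mm9 per the submitters' processing notes. The sources used here give no versions, aligner, read filters or rule for the sign. Each chromosome has mean 0 and an SD near 1 in each library, so compartment strength cannot be compared between libraries. The files hold no read counts, so depth is unknown and no counting interval is given.

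Bins with a value in all 5 libraries on chromosomes 1 to 19 and X were fitted with limma 3.58.1 (R 4.3.3), 3 groups in 1 fit, 2-sided, Benjamini-Hochberg over 50336 bins. The fit had 2 residual degrees of freedom and 6.29 from the prior. It was tested on simulated data. Its p-values reflect only how far the libraries scatter, and that scatter may be technical. Cluster means per library were compared by exact permutation. Named were the extreme bins of each cluster, the sign changes at its edges and up to 5 merged called regions (gap of at most 1 bin) per direction and comparison. Clusters, lists and tests were chosen with earlier results of these data known. Other steps ran in Python 3.11.15 with scipy 1.17.1. Alternatives were other scalings, sets of bins, weights, edges, flanks and libraries. Coordinates are mm9 and gene names come from RefSeq (GRCm38.p6). No mm9 annotation was used here.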

Additional observations from a re-analysis of the deposited data

How the results depend on the processing

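Under the alternatives 121 recomputed values kept their direction and stayed within the spread between replicates (or, for counts, near the reported one). Of the others, 38 were classed as moved, some of which also changed sign, and 6 as reversed. Early against Basal was the least stable: its 16 called cluster bins became 3 after quantile normalization, 27 with chromosome medians set to 0, 47 with a trend in the prior, 0 with libraries weighted by local noise, 27 with a replicate block, 48 at an adjusted p of 0.1, and 0 to 63 with 1 library left out. Late against Early (15) gave 9, 30, 34, 4 and 31 under quantile normalization, medians set to 0, the trend, the weights and the looser p, 4 without chromosome 7, and 7 to 52 with 1 library left out. Late against Basal (6) gave 16 with medians set to 0, 0 without chromosome 7, and 1 to 14 with 1 library left out. Bins of opposite sign numbered 3 to 7 (Late, Basal), 0 to 1 (Early, Basal) and 4 to 8 (Late, Early) with 1 library left out. Fewer libraries must then agree, and no shares of all bins are given for these counts. For called bins, the share of all bins moved in the same direction as each cluster count above. For Early against Basal (19.2%) it was 17.4%, 22.4%, 20.5%, 7.09%, 20.2% and 29.6%, in the order above. For Late against Early (14.3%) it was 12.7%, 16.4%, 16.1%, 2.92% and 24.2%, and 12.7% without chromosome 7. For Late against Basal (17.0%) it was 21.2% with medians set to 0 and 16.4% without chromosome 7. Shares for the ends of the ranges with 1 library left out are given in the comparisons. Quantile normalization gave Early minus Basal means of -0.0137 (chromosome 2) and -0.0709 (chromosome 9), and Late minus Early means of -0.000667 and -0.0146. With medians set to 0, Early minus Basal on chromosome 2 was -0.321 and Late minus Early 0.285, and on chromosome 7 Late minus Basal was -0.25 and Late minus Early -0.382. Late minus Early on chromosome 7 was -0.072 as a median over bins. Leaving out 1 library gave Late minus Basal means of -0.0994 to 0.0148 on chromosome 2 and -0.0831 to 0.0983 on chromosome 7. With chromosome 7 as deposited, Late minus Basal was -1.38 and Late minus Early -1.55. With all 5 libraries inverted there, an alternative chosen after seeing the data, Late minus Basal was -0.00756, Early minus Basal -0.178, Late minus Early 0.17 and cluster minus flanks -2.26. Where no cause is given by the construction of the alternative, the cause was not tested. The replicate numbers were not shown to pair the libraries: the Basal and Late differences between replicates correlated at r = 0.0107 over bins, and the replicate block left the other counts at 6 and 15. Of the bins called without the block, 6 of 6 and 12 of 15 were still called in the same direction. Depth is unknown, and a single Early library limits both comparisons that use it.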
